A study of Mus musculus with 2 samples.

Results

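Cycling CD8 T cells were taken from a single-cell RNA survey of mouse tumor leukocytes. They were chosen by a rule on raw UMIs (unique molecular identifiers, which mark single captured transcripts). A member had at least 1 UMI of Cd3d, Cd3e or Cd3g, at least 1 of Cd8a or Cd8b1, at least 2 of Mki67 plus Top2a, and 0 UMIs of Cd4, Foxp3, C1qa, C1qb, Csf1r and Cd79a. The rule found 925 members among 18539 cells that passed the filters, 909 in the DOPAC library and 16 in the Control library. The levels of all genes named in the rule therefore describe the choice and are not findings.

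The study sorted CD45-positive cells, that is leukocytes, from tumors grown from B16-F10, a melanoma line, in wild-type (WT) mice. The mice received vehicle, labelled Control, or DOPAC, the usual abbreviation for dihydroxyphenylacetic acid, a breakdown product of dopamine. Dose, schedule, age and sex were not given in the sources used here. According to the design text 4 mice were treated in each group. Their cells arrived as a single library per group with no map from cells to mice, so a library was 1 sample and no difference below has a replicate check. The protocol label speaks of colon tissue, whereas the tissue label and the title name the tumor.

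CD8 T cells recognise peptides on MHC class I and kill with perforin and granzymes. After antigen and costimulation they divide, copying DNA in S phase under E2F-driven genes such as the Mcm helicase, Pcna and Pclaf, and then building a spindle with genes such as Kif11, Nusap1 and Birc5. Mki67, which coats mitotic chromosomes, and Top2a, the topoisomerase that untangles DNA, are the usual marks of such cells. In tumors, dividing CD8 T cells often carry inhibitory receptors such as PD-1 (Pdcd1) and TIM-3 (Havcr2).

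The promoters of 3 of the genes used to name these cells are shown because they were picked, after all 5 had been searched, for holding both kinds of letters that cell cycle promoters are known for. CCAAT is the box bound by NF-Y, and TTTGAA is a core of the cell cycle homology region (CHR) read by the DREAM complex and B-MYB. Capitals mark CCAAT and TTTGAA on either strand, where the opposite strand reads ATTGG and TTCAAA. The sequences are RefSeq's on GRCm38.p6 and run 5′ to 3′ along the gene, from 250 bases before the start site to 50 after it.
Mki67 (chr7:135716330-135716629, minus strand): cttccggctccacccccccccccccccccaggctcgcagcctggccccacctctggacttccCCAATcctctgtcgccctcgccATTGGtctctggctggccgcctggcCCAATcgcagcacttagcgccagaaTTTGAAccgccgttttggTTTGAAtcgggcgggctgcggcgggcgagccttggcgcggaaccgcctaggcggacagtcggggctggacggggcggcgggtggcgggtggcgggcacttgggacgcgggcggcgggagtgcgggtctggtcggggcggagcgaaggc
Top2a (chr11:99024140-99024439, minus strand): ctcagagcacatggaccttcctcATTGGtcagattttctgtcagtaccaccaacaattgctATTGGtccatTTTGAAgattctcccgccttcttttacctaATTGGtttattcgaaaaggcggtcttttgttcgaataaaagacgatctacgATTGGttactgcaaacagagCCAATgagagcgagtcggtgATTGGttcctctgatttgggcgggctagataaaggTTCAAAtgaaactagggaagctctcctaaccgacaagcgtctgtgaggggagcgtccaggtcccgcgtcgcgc
Kif11 (chr19:37376132-37376431, plus strand): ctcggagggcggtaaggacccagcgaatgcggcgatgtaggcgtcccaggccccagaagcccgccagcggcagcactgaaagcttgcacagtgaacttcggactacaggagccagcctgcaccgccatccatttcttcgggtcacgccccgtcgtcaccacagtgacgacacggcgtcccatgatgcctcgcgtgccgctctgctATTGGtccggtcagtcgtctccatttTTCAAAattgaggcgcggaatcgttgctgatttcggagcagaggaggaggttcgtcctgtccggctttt

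The Mki67 window held 5 such matches, the Top2a window 8 and the Kif11 window 2. Of the other naming markers searched, the Pclaf window held 2 CCAAT and 0 TTTGAA, and the Nusap1 window held 0 of either. Over all 32851 RefSeq promoter windows of the same length, 37.4% held CCAAT and 17.9% held TTTGAA on either strand. Both were in 6.95% of windows. Of the 30 genes in the spindle and cytokinesis list, 27 matched the table, with 29 windows, of which 22 (75.9%) held TTTGAA and 18 (62.1%) held both. TTTGAA was in 13 of 23 windows (56.5%) of the cyclin, kinase and APC/C list and in 10 of 22 (45.5%) of the centromere and kinetochore list. Among 29 windows of the replication list, 3 (10.3%) held TTTGAA, and 9 (31.0%) held TTTCGCGC or TTTGGCGC, letters of E2F sites, against 0.813% of all windows. The E2F letters were in 0 of 17 windows of the nucleotide supply list and in 1 of 17 (5.88%) of the replication checkpoint and repair list. A match describes the letters in the window and is not a binding site.

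The label was first checked against markers the rule did not use. In the DOPAC library, Pclaf (GRCm38 chr9:65890237-65903266, plus strand), a partner of Pcna at replication forks, was found in 759 of 909 members (83.5%) at 561 counts per 1e6 UMIs (CPM). Kif11, a spindle motor, was found in 539 members (59.3%) at 159 CPM, and Nusap1, a microtubule bundling protein, in 452 (49.7%) at 125 CPM. Birc5, the survivin subunit of the Aurora B complex, was found in 62.4% of members at 185 CPM, and Cdk1, the mitotic kinase, in 31.1% at 54.6 CPM. DOPAC members detected a median of 34 other cell cycle genes of 102, and the quartiles were 21 and 45. The 102 are the 29 genes of the replication list and 73 of the mitosis lists, without tubulins and Stmn1, and neither Mki67 nor Top2a is among them. In DOPAC macrophages, at a median of 4303 UMIs per cell against 8049 in members, Pclaf was found in 5.24%, Kif11 in 2.12%, Nusap1 in 2.41%, Birc5 in 4.82% and Cdk1 in 1.84%. With 1000 UMIs per cell Pclaf was in 40.1% of members, 4.36% of non-cycling CD8 T cells and 1.73% of macrophages. The DOPAC members thus carried the wider cell cycle programme.

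The 16 Control members mostly did not. They detected a median of 9 other cell cycle genes, and only 5 of the 16 detected 20 or more, against 698 of 909 DOPAC members (76.8%). The 11 Control members below that number held 0 UMIs of Pclaf, which is among the genes counted. Of these 11, 7 met the rule by exactly 2 Top2a UMIs without any Mki67. In 10 of the 11, at least 1 UMI of Lef1 or Tcf7 was found, transcription factors of naive and stem-like T cells. The 2 Control members with the most cell cycle genes held 67 and 54 of them, with 38 and 7 Pclaf UMIs, 12 and 9 Gzmb UMIs, and 3 and 5 Pdcd1 UMIs. Most Control members are therefore called here by their rule only. Comparisons that use them also give the levels in the 5 with at least 20 other cell cycle genes, for the genes and lists named there.

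Cells near the threshold showed how the rule divides the population in the DOPAC library. The 467 CD8 T cells just outside it, with 1 UMI of Mki67 plus Top2a, detected a median of 7 other cell cycle genes, and the 178 cells just inside it, with 2 UMIs, a median of 13. The 1816 cells with 0 such UMIs detected 5. The median rose to 24.5 genes in the 262 cells with 3 to 5 UMIs, 39 in the 233 cells with 6 to 10 and 47 in the 236 cells with over 10. Median depth moved with it, from 3823 UMIs per cell at 0 to 5239.5 at 2 and 10358 at over 10. With all cells thinned to 2000 UMIs the medians were 3, 6 and 15 genes for 0, 2 and over 10.

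**Figure D1:**
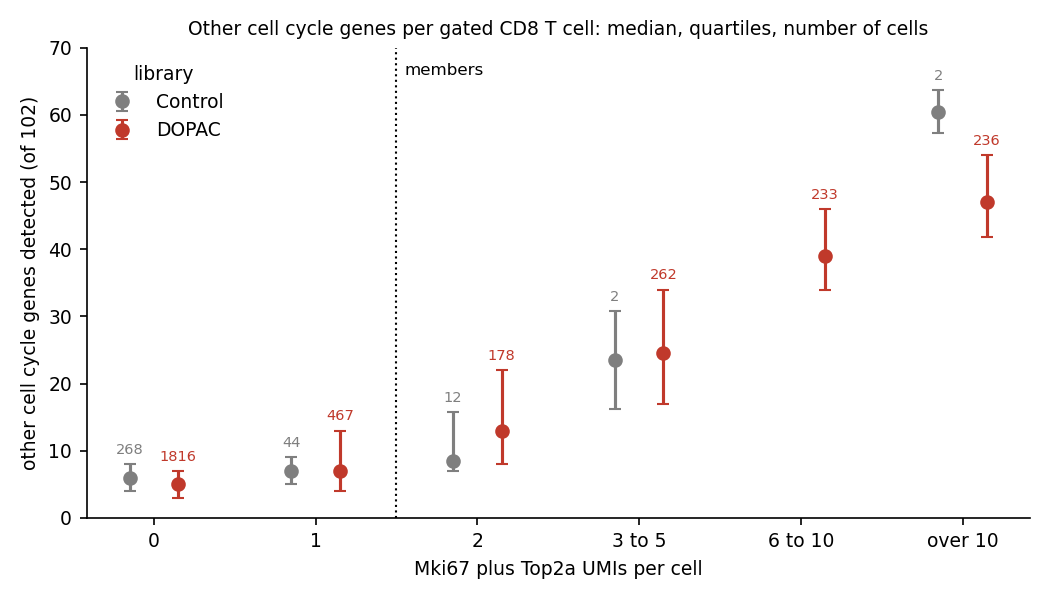
Other cell cycle genes detected per gated CD8 T cell (y axis, of 102) by the cell's Mki67 plus Top2a UMIs (x axis) in the Control (grey) and DOPAC (red) library; points are medians, bars quartiles and numbers count cells. Cells right of the dotted line are members; the 12 Control cells with 2 UMIs had a median of 8.5 genes, near the 7 of cells with 1 UMI.

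Depth, shared barcodes and doublets bear on every value. Total UMIs were 7735557 in DOPAC members and 164281 in Control members, with medians of 8049 and 8651.5 per cell. Non-cycling CD8 T cells, meaning the same gate with 0 UMIs of Mki67 plus Top2a, had medians of 3823 in DOPAC and 6871.5 in Control. Because 2 UMIs are reached more easily in deeper cells, depth and RNA content of members cannot be told apart. The 2 libraries shared 32 barcode sequences, and 0 of them belonged to members. Doublets were kept. In Control, Scrublet's own threshold marked 4.01% of cells, below the expected 7.70%, and 0 members. In DOPAC that threshold marked 0.0%, so the expected rate was used. It marked 91 DOPAC members (10.0%), against 7.10% of non-cycling DOPAC CD8 T cells. Because the cuts differ, the counts cannot be compared between the libraries.

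RNA of other cell types was present in members and was measured for whole marker lists. Of 10 monocyte and macrophage markers, C1qa, C1qb and Csf1r were at 0 by the rule, and the list summed to 179 CPM in DOPAC members and 194 CPM in DOPAC non-cycling CD8 T cells. It was found in 56.1% and 39.0% of these cells. Lyz2, the most abundant of them, was at 131 CPM in DOPAC members against 3997 CPM in DOPAC macrophages. The 16 Control members held 292 CPM of the list. Of 7 NK markers, none was at 0 in DOPAC members, and they summed to 404 CPM, 500 CPM in non-cycling cells. B-cell markers summed to 1.16 CPM, mast cell and basophil markers to 0.388 CPM and neutrophil markers to 8.66 CPM. Dendritic cell markers summed to 102 CPM and melanoma markers to 17.3 CPM, and 605 of the 621 haemoglobin and other erythroid UMIs lay in 1 member. The part of such RNA in the results was not tested beyond the values without cells holding Lyz2, Cd68, Apoe or C1qc.

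Cycling cells made up a larger share of CD8 T cells in the DOPAC library. They were 909 of 3192 gated CD8 T cells (28.5%, 95% Clopper-Pearson interval 26.9 to 30.1) in DOPAC and 16 of 328 (4.88%, 2.81 to 7.80) in Control. The difference was 23.6 percentage points (Newcombe interval 20.3 to 26.0). Of all cells that passed the filters, members were 9.005% in DOPAC and 0.189% in Control. All intervals here cover counting error only and not the spread between mice.

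The direction held under each rule tried, but the Control value moved. Requiring 3 UMIs gave 1.22% in Control and 22.9% in DOPAC, and requiring 20 other cell cycle genes as well gave 1.52% and 21.9%. When the gate was kept at full depth and Mki67 plus Top2a was counted in 2000 UMIs per cell, 1 of 325 Control cells (0.308%) and 441 of 2971 DOPAC cells (14.8%) had 2. The exclusion of cells with C1qa, C1qb, Csf1r or Cd79a UMIs removed 63.8% of the Control cells that had passed the other steps and 23.7% of those in DOPAC. Without it the shares were 123 of 906 (13.6%) and 1266 of 4184 (30.3%).

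**Figure D2:**
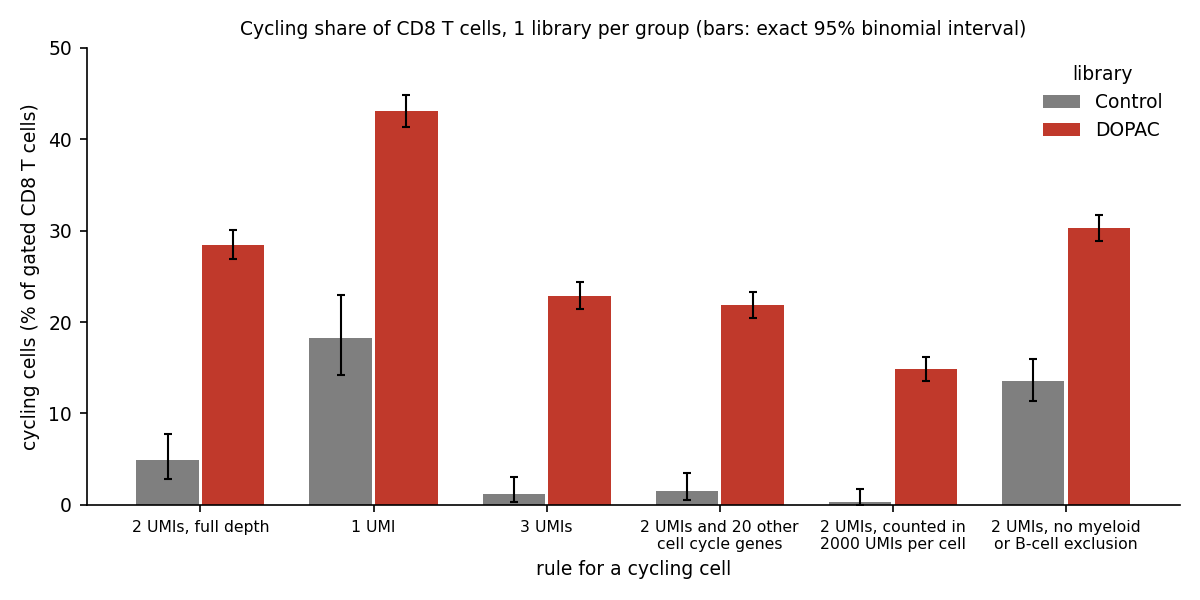
Cycling cells as a percentage of gated CD8 T cells (y axis) in the Control (grey) and DOPAC (red) library under 6 rules (x axis); lines are exact 95% binomial intervals for counting error. DOPAC is higher under each rule, and Control ranges from 0.308% to 18.3%.

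One planned setting narrowed the gap among cells with an inhibitory receptor. Among CD8 T cells with a Pdcd1, Havcr2 or Lag3 UMI at full depth, 6 of 72 Control cells (8.33%) and 33.4% of DOPAC cells were cycling. With both gate and markers counted in 2000 UMIs per cell, the shares were 8 of 55 (14.5%) in Control and 193 of 1294 (14.9%) in DOPAC, a difference of 0.370 points (interval -11.4 to 7.65). That gate admits cells whose myeloid UMIs were lost by thinning. With the gate kept at full depth the same count gave 1 of 71 Control cells (1.41%) and 380 of 2264 DOPAC cells (16.8%).

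Within the DOPAC library, members were then compared with the 1816 non-cycling CD8 T cells. UMIs were summed over each group and 5612 genes passed the level filter, of which 464 (8.27%) were at least 1.5-fold higher in members and 207 (3.69%) at least 1.5-fold lower. The median log2 ratio over all genes tested was -0.02. Since members were chosen by Mki67 and Top2a, and other cell cycle genes go with these, the ratios below describe the 2 groups. The level filter used the mean of both groups, so a gene could pass through its level in members alone. List genes low in both groups dropped out, so counts and medians of the cell cycle lists are partly set by that filter. Summed without it, the 29 genes of the replication list were at 2600 CPM in members and 726 CPM in non-cycling cells. The 30 genes of the spindle list were at 3189 and 510 CPM. Members also had more captured UMIs, a mean of 8510 per cell against 4206, a ratio of 2.02, which depth and RNA content can both give. CPM compares a gene's part of the RNA, and UMIs per cell are given for some of the genes where the scales differ in direction. Nkg7, Gzma, Ccl4, Tox, Cd8a, Btg1 and Satb1, given below in CPM only, were lower in CPM but higher in UMIs per cell in members.

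Replication genes were higher throughout in members. Of 29 genes for licensing and forks, 21 passed the filter, 21 were higher and the median log2 ratio was 1.499. Pclaf was at 561 CPM in members and 51.1 CPM in non-cycling cells (10.99-fold, 9.90 to 12.2). Pcna, the sliding clamp of the polymerases, was at 301 and 140 CPM (2.15-fold), and Pola1, the catalytic subunit that starts new strands with primase, at 266 and 64.2 CPM (4.14-fold). Uhrf1, which carries DNA methylation through replication, was 5.96-fold higher and Pole, the leading-strand polymerase, 5.64-fold. The smallest difference was that of Slbp, the histone mRNA binding protein, at 1.99-fold.

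Genes that supply nucleotides followed the same direction, 13 of 13 tested, with a median log2 ratio of 1.32. Rrm2, the regulated subunit of ribonucleotide reductase, was at 64.0 and 4.84 CPM (13.2-fold), and Rrm1, its large subunit, at 136 and 29.2 CPM (4.67-fold). Tk1, which salvages thymidine, was 5.02-fold higher, and Dut, which clears dUTP, 2.49-fold. Of 11 tested genes of the replication checkpoint and repair, 7 were higher. Brca1 was 10.2-fold and Clspn 8.28-fold higher, whereas Atm, the break-sensing kinase, was 1.18-fold (0.97 to 1.43).

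Replication-dependent histone genes, whose messages are made in S phase, were higher in 13 of 13 tested genes with a median log2 ratio of 2.51. Most of these messages lack a poly(A) tail. Hist1h2ap was at 983 CPM in members and 74.8 CPM in non-cycling cells (13.2-fold), Hist1h2ae at 421 and 40.7 CPM and Hist1h1b at 208 and 16.1 CPM. Hist1h1c, a linker histone also made outside S phase, was 1.64-fold higher. Histone genes of the cluster are near-identical in part, and how the authors' counting assigned their reads is not given in the sources used here.

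The mitotic lists stood furthest apart. Spindle and cytokinesis genes were higher in 21 of 21 tested genes (30 in the list) with a median log2 ratio of 2.83, and centromere and kinetochore genes in 15 of 15 (22 in the list) with 2.98. Kif4, the chromosome motor, was at 96.6 and 4.45 CPM (21.7-fold, 15.4 to 31.6). Tubb5, a beta tubulin, was at 652 and 91.5 CPM (7.13-fold) and Stmn1, which takes microtubules apart, at 428 and 82.1 CPM (5.21-fold). Bub1, a spindle checkpoint kinase, was 21.7-fold higher, Ccna2, cyclin A, 18.5-fold and Fbxo5, the APC/C inhibitor, 13.2-fold. Pttg1, securin, differed from the other 13 tested genes of the cyclin, kinase and APC/C list at 67.6 and 66.6 CPM (1.01-fold, 0.90 to 1.15).

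Chromatin proteins that were high already in non-cycling cells gave smaller ratios at much higher levels. All 16 genes of the mitotic chromatin list were higher, with a median log2 ratio of 1.69. Hmgb2, a DNA-bending protein, was the most abundant at 2516 and 686 CPM (3.67-fold). H2afz, the H2A.Z histone, was at 1222 and 529 CPM and Hmgb1 at 1500 and 652 CPM, 2.31-fold and 2.30-fold higher.

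Regulators of the G1 to S step did not move as a block. Of 9 tested genes, 5 were higher and 2 lower. E2f7, a repressor that E2F induces, was at 52.1 and 3.80 CPM (13.7-fold), Rbl1, the p107 pocket protein, was 4.67-fold and E2f3 2.93-fold higher. The D cyclins that couple growth signals to the cycle were lower in CPM, Ccnd2 at 86.2 and 144 CPM (0.60-fold) and Ccnd3 at 44.1 and 68.7 CPM (0.64-fold). Per cell the order turned, with 0.734 and 0.605 UMIs of Ccnd2 and 0.375 and 0.289 of Ccnd3.

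**Figure D3:**
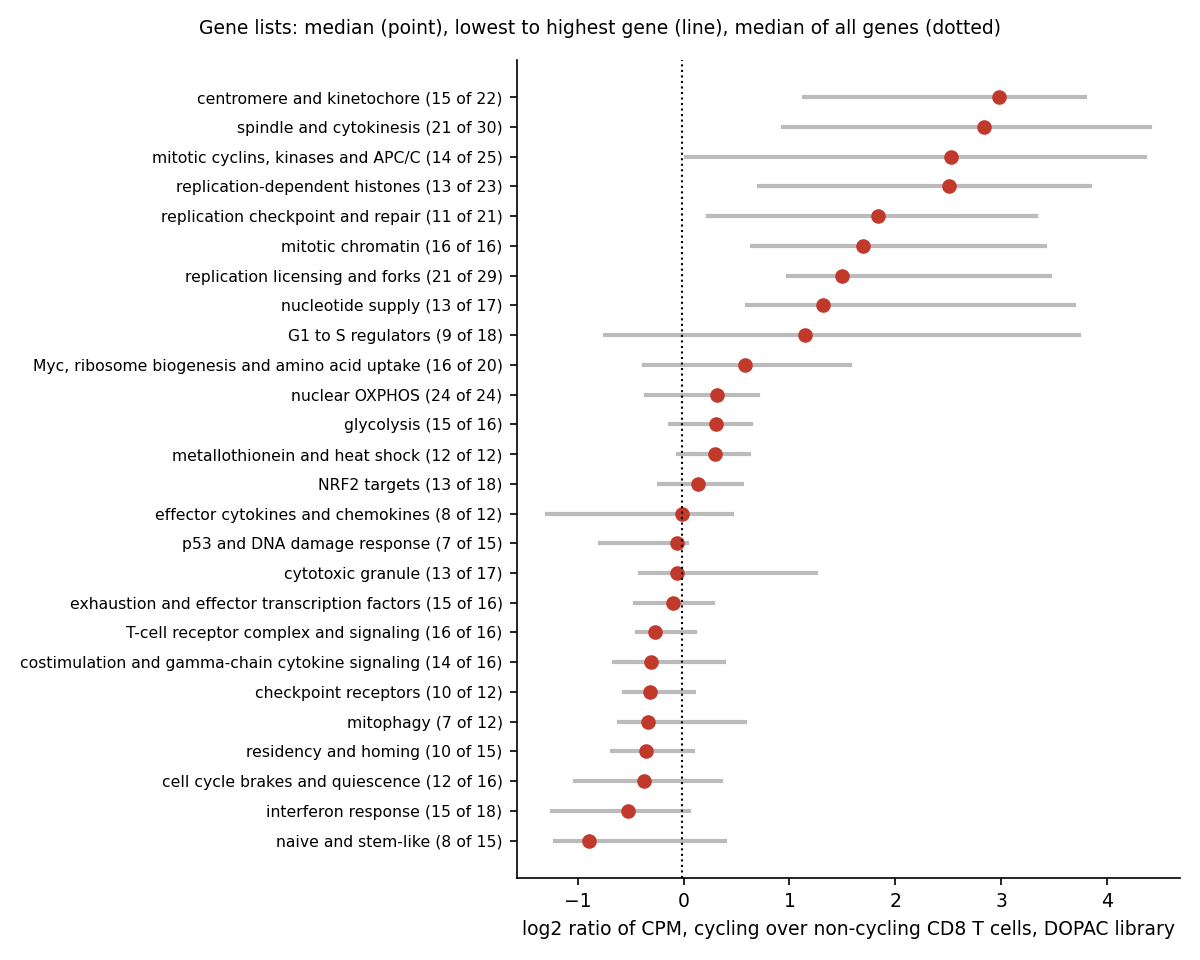
Log2 ratio of CPM in cycling over non-cycling CD8 T cells of the DOPAC library (x axis) for each gene list with at least 3 genes tested (y axis, number tested of number in the list); points are medians and lines run from the lowest to the highest gene. The 9 cell cycle lists lie at 1.14 or above, and checkpoint, T-cell receptor and naive lists lie left of the dotted median of all genes.

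Growth genes were moderately higher. Of 16 tested genes for Myc activity, ribosome biogenesis and amino acid supply, 8 were higher and 0 lower, with a median log2 ratio of 0.58. The serine pathway led the list, Psat1 at 68.9 and 23.0 CPM (2.99-fold), Phgdh at 40.5 and 15.2 CPM (2.66-fold) and Mthfd2, of the mitochondrial folate cycle, at 66.5 and 30.6 CPM (2.17-fold). Npm1 and Ncl, abundant nucleolar proteins, were 1.40-fold and 1.44-fold higher. Slc3a2, the heavy chain of amino acid transporters, was 0.77-fold. Glycolysis (2 of 15 higher, 0 lower) and nuclear-encoded respiratory chain genes (1 of 24 higher, 0 lower) had medians of 0.30 and 0.32. Tpi1 was 1.56-fold higher, Ldha 1.34-fold and Cycs, cytochrome c, 1.63-fold.

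The killing genes of members were close to those of non-cycling CD8 T cells. Of 13 tested granule genes, 2 were higher and 0 lower, with a median log2 ratio of -0.06. Gzmb (chr14:56258838-56262260, minus strand) was at 1273 and 1113 CPM (1.14-fold, 1.11 to 1.18) and was found in 59.5% of members and 52.8% of non-cycling cells at 1000 UMIs per cell, against 4.47% of DOPAC macrophages, whose median depth was 4303 UMIs. Nkg7, of the granule membrane, was at 1223 and 1388 CPM (0.88-fold), and Gzma at 151 and 200 CPM (0.75-fold). The 2 higher genes were Gzmc, at 46.3 and 19.4 CPM (2.39-fold, 1.97 to 2.91), and Gzmf, at 36.1 and 23.6 CPM (1.53-fold, 1.26 to 1.86), neighbours in the granzyme cluster on chromosome 14. At 1000 UMIs Gzmc was in 3.20% and 1.18% of these cells and in 0.577% of macrophages. Against the 1220 non-cycling cells with a Pdcd1, Havcr2 or Lag3 UMI, 1 of 13 tested granule genes was higher and 0 lower. There 7.78% of all genes tested were higher and 2.95% lower.

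Ccl5 (chr11:83525778-83530518, minus strand), a T-cell chemokine, was the exception among effector genes. It was at 3551 CPM in members and 8651 CPM in non-cycling cells (0.41-fold, 0.40 to 0.42). Its UMIs per cell were 30.2 and 36.4 although members had 2.02 times the captured UMIs. Ccl5 was 1 of 8 tested cytokines and chemokines lower by at least 1.5-fold. Xcl1, which draws cross-presenting dendritic cells, was at 316 and 230 CPM (1.37-fold), Ifng at 206 and 167 CPM (1.23-fold) and Ccl4 at 406 and 578 CPM (0.70-fold). DOPAC macrophages held Ccl5 at 926 CPM. In the same library 16 cycling and 132 non-cycling NK cells, with at least 2 UMIs of Ncr1 or Klrb1c and none of Cd3, had Ccl5 at 1918 and 7359 CPM. Their gate did not exclude Cd8, Cd4 or Foxp3 UMIs.

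Of 10 tested genes in the checkpoint receptor list, which also holds Cd38, 0 passed 1.5-fold in either direction, with a median log2 ratio of -0.32. Pdcd1 (chr1:94038305-94052553, minus strand) was at 163 and 152 CPM (1.07-fold, 0.99 to 1.16), Havcr2 at 187 and 215 CPM (0.87-fold) and Ctla4 at 258 and 362 CPM (0.71-fold). Cd38 was the lowest at 0.68-fold and Tigit was 0.71-fold. Per cell, 0 of the 10 had fewer UMIs in members, for example 1.38 and 0.638 UMIs of Pdcd1. None of 15 tested exhaustion and effector transcription factors passed 1.5-fold either, with Tox, a driver of the exhausted state, at 766 and 855 CPM (0.90-fold) and Id2 at 859 and 756 CPM (1.14-fold). Of 16 tested T-cell receptor and signaling genes, 0 passed, and Cd8a was at 265 and 340 CPM (0.78-fold).

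Naive and stem-like genes were a smaller part of the RNA in members. Of 8 tested, 6 were at least 1.5-fold lower and 0 higher, with a median log2 ratio of -0.89. Il7r (chr15:9505788-9530176, minus strand), the IL-7 receptor of resting T cells, was at 25.6 and 59.6 CPM (0.43-fold, 0.36 to 0.51), Lef1 (chr3:131110471-131224356, plus strand) at 35.6 and 73.8 CPM (0.48-fold) and Bcl2, a survival gene, at 50.4 and 101 CPM (0.50-fold). Bach2 and Satb1, regulators of quiescence, were both 0.54-fold. Ccr7, the lymph node homing receptor, went the other way at 54.7 and 41.6 CPM (1.31-fold). Il7r stood at 128 CPM in DOPAC macrophages and was found there in 9.24% of cells at 1000 UMIs, more often than in members (2.32%) or non-cycling cells (5.15%), and the part of macrophage RNA in its values was not tested. UMIs per cell were 0.218 and 0.251 for Il7r, 0.303 and 0.311 for Lef1, 0.429 and 0.425 for Bcl2 and 1.92 and 1.76 for Bach2. Against the 1220 non-cycling cells with a Pdcd1, Havcr2 or Lag3 UMI the list's median was -0.33 and 0 of 8 passed 1.5-fold, where 7.78% of 5590 genes tested were higher and 2.95% lower.

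Brakes of the cycle and interferon genes were also lower as a part of the RNA, but mostly not per cell. In UMIs per cell, 1 of 12 tested brakes and 1 of 15 tested interferon genes were lower in members. The median log2 ratios per cell were 0.64 and 0.50, below the 1.00 of all genes tested. Of 12 tested brakes, 4 were lower and 0 higher in CPM. Ypel3, linked to growth arrest, was at 45.4 and 92.7 CPM (0.49-fold) but at 0.386 and 0.390 UMIs per cell. Btg1, an antiproliferative gene, was at 515 and 790 CPM (0.65-fold), Cdkn1b, p27, was 0.64-fold and Cdkn1a, p21, 1.12-fold. Of 15 tested interferon response genes, 4 were lower and 0 higher with a median log2 ratio of -0.52, and Ifit1, an antiviral RNA sensor, was at 19.1 and 45.3 CPM (0.42-fold). Kdm5b, a histone H3K4 demethylase, was the lowest of the genes named from the whole table at 12.5 and 48.3 CPM (0.26-fold, 0.21 to 0.33).

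The scale decided the direction of most low genes. Of the 207 genes at least 1.5-fold lower in CPM, 26 (12.6%) also had fewer UMIs per cell in members, and 1 had at least 1.5-fold fewer. That gene was Kdm5b, with 0.107 and 0.203 UMIs per cell. Over all 5612 genes tested, the median log2 ratio of UMIs per cell was 1.00. Every one of the 9 cell cycle lists stood above that, from 2.16 for G1 to S regulators to 3.99 for centromere and kinetochore genes.

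Cycling was next compared between DOPAC CD8 T cells with and without a UMI of each of 28 genes or gene groups, with all cells thinned to 2000 UMIs before the gate. That gate admits cells whose myeloid, B-cell, Cd4 or Foxp3 UMIs were lost by thinning. Its 2495 cells are therefore a different set from the 3192 gated at full depth. The share was 14.6% in 1831 cells with Gzmb and 15.4% in 664 cells without it, a difference of -0.779 points (-4.10 to 2.27). It was 16.8% with Pdcd1 and 14.1% without (2.68 points, -0.52 to 6.16), and 13.3% with Havcr2 and 15.4% without (-2.10 points, -4.95 to 0.96). Cells with Tcf7, few at 74, had 12.2%, and the other cells 14.9% (-2.71 points, -8.53 to 6.76). Cells with Gzmc or Gzmf, 125 in all, had 15.2%, and the other cells 14.8% (0.432 points, -5.02 to 7.88). Each of these intervals included 0, which does not show that the shares were equal.

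For 6 single genes with at least 100 cells on each side the interval of the difference left out 0. Cells with Lef1 were cycling in 19 of 206 (9.22%) against 15.3% without (-6.07 points, -9.65 to -1.13). Cells with Ccl5 had 14.4% and the 100 cells without it 24.0% (-9.59 points, -18.9 to -2.14). Cxcr6, a tissue-retaining chemokine receptor, gave 12.7% against 15.7% (-3.07 points, -5.88 to -0.0426). Il2ra, the high-affinity IL-2 receptor chain, gave 19.6% against 14.3% (5.27 points, 0.227 to 11.3), and Tox 16.03% against 12.3% (3.76 points, 0.811 to 6.52). At 1000 UMIs, DOPAC macrophages held a UMI of Lef1, Cxcr6 and Il2ra in 0.866% each, of Tox in 2.60% and of Ccl5 in 42.1%. The sixth gene was Il7r, at 12 of 162 (7.41%) against 15.3% (-7.89 points, -11.4 to -2.61), but its UMIs were commoner in macrophages than in CD8 T cells, so no T-cell state is read from them. Full-depth medians differed between the sides, 4237 UMIs with Lef1 and 4958 without, 5347 with Il2ra and 4879.5 without, and 4872 with Ccl5 and 6487.5 without. The intervals were not adjusted for their number, and Itgae, with 3 cells, is not read.

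**Figure D4:**
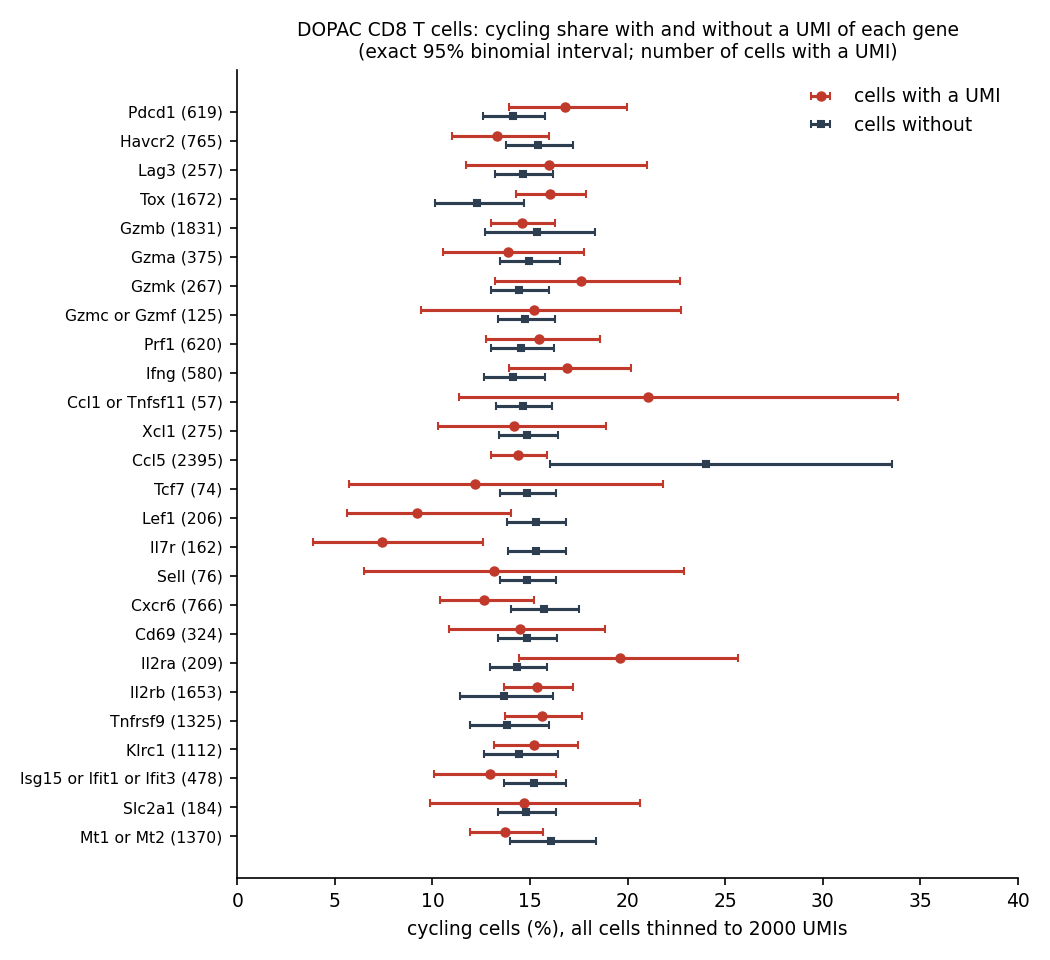
Percentage of cycling cells (x axis) among DOPAC CD8 T cells with (red) and without (blue) a UMI of each gene or gene group (y axis, number of cells with a UMI). All cells were thinned to 2000 UMIs before the gate, which admits cells whose myeloid UMIs were lost by thinning. Bars are exact 95% binomial intervals for counting error. Lef1 lies low at 9.22%, as does Il7r at 7.41%, whose UMIs are commoner in macrophages, and cells without Ccl5 lie high at 24.0%.

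DOPAC members differed among themselves in the balance of replication and mitosis RNA. Replication genes made up a median of 0.241% of a member's UMIs (quartiles 0.141 and 0.357) and mitosis genes 0.449% (0.263 and 0.647). Members with at least 5 such UMIs were put in 4 bins of about equal size by the mitosis part of the sum, which left out 20 cells. The levels of the genes in that sum describe the order. Pcna fell from 404 CPM in the first bin to 159 CPM in the last and Mcm5, of the replicative helicase, from 96.1 to 35.1 CPM, while Ccnb1, cyclin B1, rose from 4.86 to 31.2 CPM.

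Genes outside the sum showed where the bins otherwise differed. Median depth was 7952, 8362, 7823 and 8435 UMIs. Ccne2, cyclin E2 of the G1 to S step, fell over the bins from 35.1 to 29.0, 18.4 and 9.26 CPM. Hist1h2ap was at 585, 1131, 1246 and 1000 CPM, highest in the third bin, and the histone list as a whole at 0.151%, 0.294%, 0.327% and 0.297% of UMIs. Hmgb2 was at 1571, 2378, 2952 and 3188 CPM and Tubb5 at 337, 653, 827 and 803 CPM.

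Effector and receptor genes differed in their course over the bins. The granule list took 0.462%, 0.486%, 0.469% and 0.479% of UMIs. Gzmb was at 1359, 1282, 1219 and 1244 CPM and Pdcd1 at 152, 171, 160 and 168 CPM. Ccl3, a chemokine, was at 310, 413, 239 and 225 CPM and Gzmc at 56.7, 34.0, 32.9 and 61.9 CPM. Tigit was at 19.97, 17.3, 32.3 and 31.7 CPM, and Il2ra at 79.3, 67.1, 75.2 and 53.6 CPM. Tox was at 680 CPM in the first bin and 896 CPM in the last (intervals 643 to 719 and 856 to 938) and Gzma at 97.1 and 183 CPM, whereas Ldha was at 575 and 433 CPM. Gzmf was at 67.5 CPM in the first bin and 10.7 CPM in the last, and it was found in 30 of 221 and 14 of 232 cells. These levels pool cells of 1 library, so the intervals hold for counting and not for mice.

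**Figure D5:**
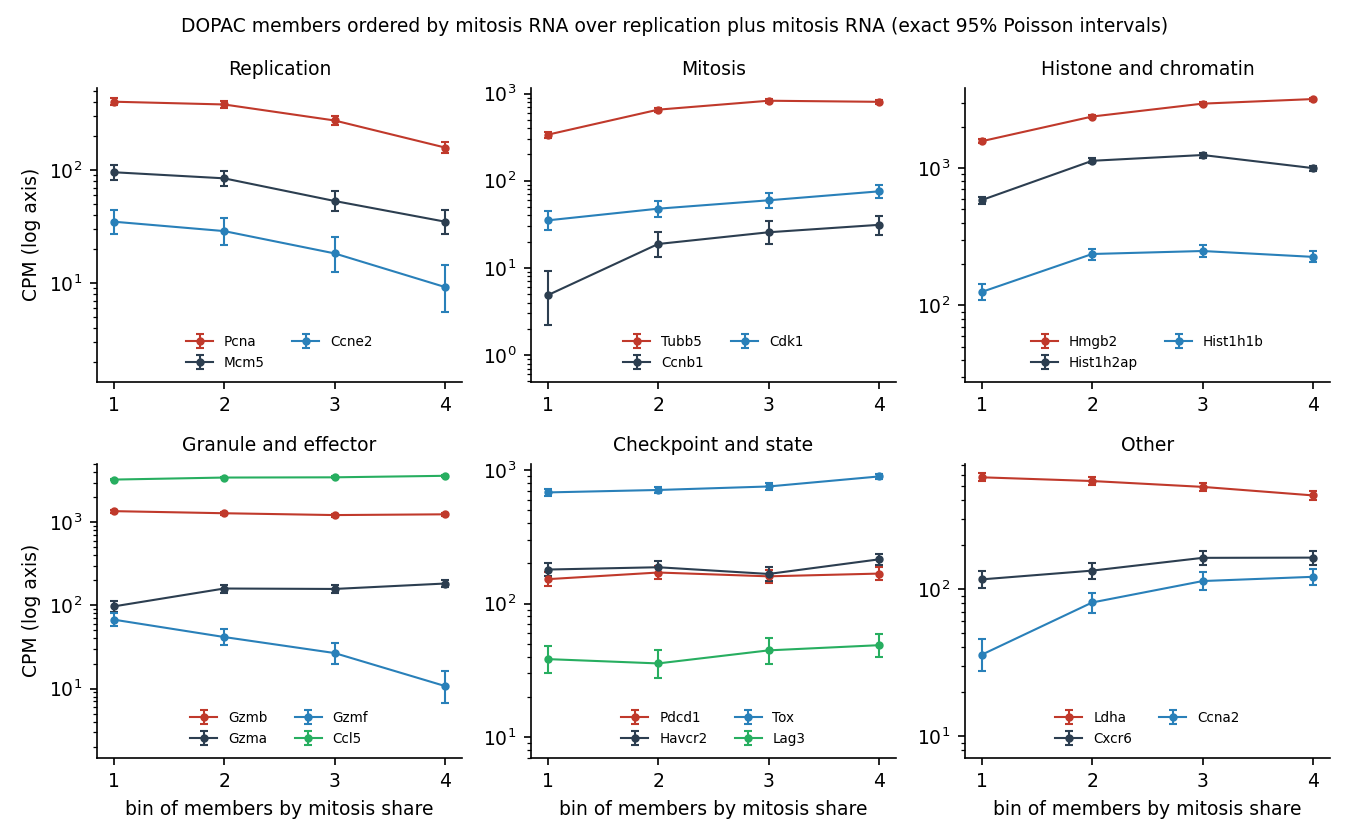
Level in CPM (y axes, log scale) of genes in the 4 bins of DOPAC members ordered by mitosis RNA over replication plus mitosis RNA (x axes); bars are exact 95% Poisson intervals for counting error. Pcna falls from 404 to 159 CPM and Hmgb2 rises from 1571 to 3188 CPM, while Gzmb stays between 1219 and 1359 CPM.

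T-cell receptor beta V segments, which the rule did not use, were read in 191 of 909 DOPAC members (21.0%) by the Trbv gene with most UMIs. Trbv2 was the segment in 106 of them (55.5%, 48.1 to 62.7), followed by Trbv20 in 21, Trbv13-2 in 16 (8.38%) and Trbv12-2 in 13 (6.81%). Non-cycling CD8 T cells of the same library had Trbv2 in 128 of 228 (56.1%, 49.4 to 62.7). In the Control library Trbv2 was in 1 of 36 non-cycling cells with a segment (2.78%, 0.0703 to 14.5) and in 0 of 3 members, where Trbv12-2 led the non-cycling cells with 9. A Trbv UMI was found in 0.567% of DOPAC macrophages. V segments alone do not identify a clone, and cells of 1 clone in 1 mouse and of several mice cannot be told apart.

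Members were last compared between libraries. The 16 Control members hold few UMIs, and 11 of them lack most cell cycle genes. Of 5837 genes tested, 809 (13.9%) were at least 1.5-fold higher in DOPAC and 1800 (30.8%) at least 1.5-fold lower, around a median log2 ratio of -0.21. Centred on that median the counts were 1218 and 1268. The median half-width of a gene's 95% counting interval was 1.03 on the log2 scale, wider than the 1.5-fold line, so the counts of genes and of list members in this comparison include genes that differ by no more than counting error.

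Naive and stem-like genes were lower in DOPAC members in 11 of 12 tested genes, with a median log2 ratio of -2.16, or -1.95 relative to the median gene. Tcf7 was at 8.01 and 134 CPM (log2 ratio -4.10) and Lef1 at 35.6 and 481 CPM (-3.77), from 22 and 79 Control UMIs. Klf2, which keeps T cells quiescent and recirculating, was at 15.9 and 262 CPM (-4.06), and 10 of 13 tested brakes were lower. Among members that detected 20 other cell cycle genes, Lef1 was at 32.6 CPM in DOPAC and 163 CPM in Control, from 12 UMIs, and Klf2 at 14.6 and 67.8 CPM, from 5. Tcf7 had 0 UMIs in these 5 Control members, which allows up to 40.7 CPM (3 counts in their sum), and stood at 7.36 CPM in DOPAC, so no direction was detectable at this depth. The naive list summed to 859 and 1356 CPM in these members, with 6 of its 15 genes at 0 in Control, and to 5821 CPM in the 11 other Control members. The brakes summed to 1394 and 1315 CPM. In non-cycling CD8 T cells naive genes were lower in DOPAC too, 13 of 13 tested with a median of -2.43, where 14.6% of genes tested were higher and 17.9% lower. Between members, the median of the spindle list was 0.93 but -0.09 with the 3-UMI rule and -0.07 at 1000 UMIs per cell. With 20 other cell cycle genes required, that list summed to 3535 CPM in DOPAC and 2834 CPM in Control. Of those 209 Control UMIs, 101 lay in 1 cell. The replication list summed to 2814 and 2929 CPM under that rule, which itself counts genes of these lists. Pclaf was at 561 and 317 CPM (0.80) in all members but at -0.63 with the 3-UMI rule.

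Effector genes gave a mixed picture between the libraries. Gzmb was at 1273 CPM in DOPAC members and 359 CPM in Control members (log2 ratio 1.80, 2.75 to 4.66 times as high), and at 1315 and 542 CPM (1.24) with 20 other cell cycle genes required. Xcl1 was at 316 and 36.5 CPM, the latter from 6 UMIs, and Ifng at 206 and 67.0 CPM. With 20 other cell cycle genes Xcl1 was at 347 and 81.4 CPM and Ifng at 216 and 81.4 CPM, each from 6 Control UMIs. Pdcd1 was at 163 and 170 CPM (-0.12), and at 167 and 312 CPM (-0.96) in those members. The checkpoint receptor list had 4 of 9 tested genes higher and 1 lower with a median of 0.48. Under that rule its median was -0.68, while its sum was 1145 CPM in DOPAC and 1085 CPM in Control, so median and sum differed in sign. In non-cycling CD8 T cells 7 of 9 tested genes of this list were higher in DOPAC and 1 lower, with a median of 1.59. There 14.6% of all genes tested were higher and 17.9% lower, and Pdcd1 was at 152 and 50.1 CPM. Granule genes had 6 of 12 higher and 3 lower with a median of 0.45. With 20 other cell cycle genes required their median was -0.25, and their sums, 4769 and 3946 CPM, lay the other way. Metallothionein and heat shock genes were higher in 8 of 12, led by Mt2 at 111 and 12.2 CPM and Mt1 at 516 and 91.3 CPM, the Mt2 value resting on 2 Control UMIs. With 20 other cell cycle genes Mt1 was at 517 and 81.4 CPM and Mt2 at 114 and 13.6 CPM, the latter from 1 UMI, and the list summed to 4916 and 4027 CPM. In non-cycling CD8 T cells Gzmb was at 1112.5 CPM in DOPAC and 156 CPM in Control, and Ifng at 167 and 59.9 CPM. Mt1 stood there at 536 and 54.7 CPM, Mt2 at 110 and 3.61 CPM and Xcl1 at 230 and 192 CPM. The differences in Gzmb, Ifng, Mt1 and Mt2 were therefore not particular to members.

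Within the Control library, members against its 268 non-cycling CD8 T cells gave 1621 of 5751 genes (28.2%) higher and 653 (11.4%) lower around a median of 0.20. Centred, the counts were 1122 and 1021. Replication genes were higher in 11 of 12 tested (median 1.72) and spindle genes in 7 of 8 (1.44), and naive genes were lower in 11 of 13 (-0.95). A few cells carried the cell cycle sums. The 5 members with at least 20 other cell cycle genes held 216 of the 276 replication UMIs (102 in 1 cell). They also held 209 of the 258 spindle UMIs (101 in 1 cell) and all 52 of Pclaf. The 5 were set apart by a count of detected genes drawn from these same lists, Pclaf included. Their higher sums therefore describe that cut. In the 11 others the replication list summed to 663 CPM and the spindle list to 541 CPM, against 451 and 408 CPM in non-cycling Control cells and 2929 and 2834 CPM in the 5. The naive list summed to 5821 CPM in the 11, 1356 CPM in the 5 and 7899 CPM in non-cycling cells. The median half-width of the counting interval was 1.05 on the log2 scale. Whether the 2 libraries differ in these ratios was not tested.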

How the data were processed

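Single-cell RNA of CD45-positive tumor cells was measured in 1 Control and 1 DOPAC library. Each deposited matrix holds whole-number UMI counts for genes by barcodes, not normalized. Per the file headers the software was Cell Ranger 7.0.1, and the submitters' processing notes name GRCm38. Other upstream steps are not given in the sources used here. Cells were kept with at least 500 UMIs, 200 genes and at most 10% mitochondrial UMIs. UMIs were summed per library and cell group and given as CPM. Tested genes had at least 20 UMIs in both sums together and a mean of at least 20 CPM. A gene can pass this filter through 1 group alone. Log2 ratios had 1 count added to each sum, and folds and levels have exact 95% intervals for counting error. With 1 library per group no test was made, and "higher" and "lower" in counts of genes mean at least 1.5-fold in CPM. The ratio and interval code was tested on simulated data.

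The members and gene lists were chosen with earlier results of these data known. Named genes were the markers and, per list, the 3 most abundant, 3 highest and 3 lowest, plus the 10 highest and 10 lowest genes with at least 50 UMIs, without mitochondrial, ribosomal, haemoglobin, immunoglobulin, receptor segment and clone-named genes and genes at least 2-fold apart the same way in macrophages and NK cells. Genes outside that rule (bins, states, UMIs per cell) were picked by function. Doublets were scored with Scrublet in scanpy 1.11.5. In DOPAC its threshold marked 0.0%, so the 870 highest scores, the expected rate, were used. Alternatives covered depth, thresholds, filters, scaling, doublets and comparators. Some items are not reported here.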

Additional observations from a re-analysis of the deposited data

How the results depend on the processing

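No paired analysis was possible because each group is 1 library. The share of cycling cells was 0.435% in Control and 5.59% in DOPAC at 1000 UMIs per cell, 2.58% and 14.8% at 2000, 18.3% and 43.1% with 1 UMI, and 1.22% and 22.9% with 3. With 2 Cd8 UMIs DOPAC gave 32.7%. Alternatives chosen after seeing the data gave 0.308% and 14.8% with the gate at full depth and markers at 2000 UMIs, 13.6% and 30.3% without the myeloid and B-cell exclusion, and 1.52% and 21.9% with 20 other cell cycle genes. Mitochondrial limits and removal of marked doublets moved the shares by less than their intervals.

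In DOPAC over Control, higher genes numbered 1218 after centring, 400 at 1000 UMIs, 434 with a 50 CPM filter and 1308 without one; lower genes numbered 788 and 4241 in the last 2. The spindle median turned to -0.0701 at 1000 UMIs and -0.0923 with 3 UMIs, the centromere median to -0.0176 and -0.105, and mitotic chromatin to -0.0798 with 3 UMIs. Pclaf turned to -0.63 with 3 UMIs and -0.21 with 20 other cell cycle genes, where the brakes' median was 0.0273 with 4 of 16 genes at 0 in Control. Those rules leave 4 and 5 Control members.

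In DOPAC, cycling over non-cycling, 352 genes were lower at 1000 UMIs. Higher and lower genes numbered 220 and 111 at 50 CPM and 1289 and 1062 without a filter. Csf2, a cytokine gene, turned to -0.10 without cells holding Lyz2, Cd68, Apoe or C1qc. In Control, 1021 genes were lower after centring, 891 were higher and 306 lower at 1000 UMIs, 699 and 320 at 50 CPM, 1128 lower without a filter, 696 higher against checkpoint-positive cells and 2493 higher with 3 UMIs. Filters change how many genes are tested; the cause of the other moves was not tested. The Control members' 164281 UMIs limit every comparison with them.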

Other observations

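Cycling NK cells, gated by Ncr1 or Klrb1c without Cd3 UMIs and with the same rule of 2 UMIs of Mki67 plus Top2a, were 16 of 167 NK cells (9.58%) in DOPAC and 13 of 284 (4.58%) in Control. In DOPAC cycling NK cells, Pclaf was at 518 CPM and Hmgb2 at 1996 CPM, near the CD8 T members' 561 and 2516 CPM. Gzmc was at 259 CPM there against 46.3 CPM in CD8 T members, and Gzmb at 873 against 1273 CPM. Both groups come from 1 library, and 16 cells carry few UMIs. The NK gate did not exclude Cd8, Cd4 or Foxp3 UMIs. In these 16 cells none of 5 CD8 T-cell markers (Cd8a, Cd8b1, Nkg7, Ctsw and Ccl5) was at 0, and none was in non-cycling DOPAC NK cells. These markers summed to 2894 CPM in the 16 and 8746 CPM in the non-cycling cells, and the T-cell markers to 380 and 561 CPM. The CD4 and regulatory T-cell markers went the other way, at 216 and 85.1 CPM. Whether T cells without a Cd3 UMI were among the 16 was not tested.

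NRF2 targets had 0 of 13 tested genes past 1.5-fold between DOPAC members and non-cycling DOPAC CD8 T cells, with Txn1 at 889 and 668 CPM (1.33-fold) and Tkt, of the pentose phosphate pathway, 1.46-fold. Of 7 tested mitophagy genes 1 was lower, Sqstm1 at 124 and 190 CPM (0.65-fold), and Phb2 was 1.49-fold.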
